A study of Homo sapiens with 6 samples.

Results

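The HOX genes of clusters A to D were taken by symbol, as every gene of the count tables named HOXA, HOXB, HOXC or HOXD followed by a number. This gave 39 genes of the 19923 in the tables, with 11 in cluster A, 10 in cluster B, 9 in cluster C and 9 in cluster D. Their RNA was read by sequencing poly(A) libraries made from Kelly, a human neuroblastoma cell line; the labels describe it as MYCN-amplified and its genotype as WT. The groups were siControl, cells transfected for 72 hours with a control siRNA, and siMETTL3, cells transfected for 72 hours with an siRNA against METTL3, with 3 libraries each. All 6 libraries thus share the line, the transfection and the culture time, and the tables' headers name a single METTL3 siRNA, siMettl3B. METTL3 is the methyltransferase that places N6-methyladenosine on mRNA, and the comparison addresses what its depletion changes.

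HOX genes encode homeodomain transcription factors that give cells their position along the body axis. Each cluster is an ordered row of genes, numbered by paralogue group, and low-numbered genes are as a rule active further towards the head and high-numbered genes further towards the tail or the limb tips. HOX proteins bind DNA together with cofactors of the TALE family, PBX, MEIS and PKNOX, and clusters are held active or silent by Trithorax and Polycomb complexes. In neuroblastoma, a tumour of the sympathetic lineage, several HOX genes have been linked to retinoic acid response and neuronal differentiation, HOXC9 and HOXD8 among them.

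Kelly cells read out only part of this set. Clusters A and B were at or near 0 counts throughout, cluster C was read from HOXC4 to HOXC9 but not from HOXC10 to HOXC13, and cluster D was read along its whole length except for HOXD12. After METTL3 knockdown HOXD9, HOXD13, HOXD8 and HOXD3 were lower, by 13.7% (HOXD3) to 29.9% (HOXD9) of the control level, and no HOX gene was called higher. These 4 were 30.8% of the 13 tested HOX genes, near the 37.8% called over all 15311 tested genes. Only HOXD9 kept its call whichever library was left out.

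The start regions of 5 of these genes are shown here because they stand for the patterns described in the text. HOXD13, HOXD8 and HOXD3 were expressed and lower in siMETTL3. HOXC4 was expressed and not called, and HOXA13 is an unexpressed paralogue of HOXD13. Each is the RefSeq window from 250 bases before to 50 bases after the gene's start, on GRCh38.p14, written 5′ to 3′ on the strand of the gene, with every CG dinucleotide in capitals.
HOXD13 (chr2:176092471-176092770, plus strand): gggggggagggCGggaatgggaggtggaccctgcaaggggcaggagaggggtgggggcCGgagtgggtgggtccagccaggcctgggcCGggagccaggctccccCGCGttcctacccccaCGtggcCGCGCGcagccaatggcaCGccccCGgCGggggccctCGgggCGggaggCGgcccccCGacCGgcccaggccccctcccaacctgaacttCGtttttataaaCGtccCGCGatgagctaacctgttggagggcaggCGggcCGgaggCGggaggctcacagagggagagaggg
HOXD8 (chr2:176129455-176129754, plus strand): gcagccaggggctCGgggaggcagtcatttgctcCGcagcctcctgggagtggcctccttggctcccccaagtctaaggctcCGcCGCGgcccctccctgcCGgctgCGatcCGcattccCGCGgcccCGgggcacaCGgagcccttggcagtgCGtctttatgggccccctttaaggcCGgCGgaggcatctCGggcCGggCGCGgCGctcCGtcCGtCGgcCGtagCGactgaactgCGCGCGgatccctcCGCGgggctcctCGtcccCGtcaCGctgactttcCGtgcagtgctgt
HOXD3 (chr2:176157057-176157356, plus strand): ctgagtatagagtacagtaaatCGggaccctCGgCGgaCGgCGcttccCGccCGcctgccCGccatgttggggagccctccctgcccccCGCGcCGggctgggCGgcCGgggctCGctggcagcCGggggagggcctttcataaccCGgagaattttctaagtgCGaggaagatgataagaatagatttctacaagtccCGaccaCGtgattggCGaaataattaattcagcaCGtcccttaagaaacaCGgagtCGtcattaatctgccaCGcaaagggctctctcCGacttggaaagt
HOXC4 (chr12:54016638-54016937, plus strand): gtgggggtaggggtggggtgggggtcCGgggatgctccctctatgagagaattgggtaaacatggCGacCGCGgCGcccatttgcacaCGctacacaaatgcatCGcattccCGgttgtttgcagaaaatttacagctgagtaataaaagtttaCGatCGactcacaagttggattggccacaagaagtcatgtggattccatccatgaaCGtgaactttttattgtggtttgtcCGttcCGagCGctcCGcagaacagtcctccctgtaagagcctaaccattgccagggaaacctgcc
HOXA13 (chr7:27200042-27200341, minus strand): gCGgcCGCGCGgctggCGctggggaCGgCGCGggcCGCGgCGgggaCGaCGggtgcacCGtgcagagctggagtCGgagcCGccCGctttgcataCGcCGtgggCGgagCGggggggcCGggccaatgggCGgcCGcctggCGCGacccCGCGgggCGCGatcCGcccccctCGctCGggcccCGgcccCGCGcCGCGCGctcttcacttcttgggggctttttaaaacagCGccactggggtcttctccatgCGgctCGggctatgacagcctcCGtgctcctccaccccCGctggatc
The table of windows held 27 windows for 20 of the 39 genes, and all 27 matched hg38 letter for letter. HOXD9 had no window there, so its start region is not shown. CG was counted 24 times in the HOXD13 window, 34 times in HOXD8, 25 times in HOXD3, 15 times in HOXC4 and 44 times in HOXA13. The median was 22 over the HOX windows and 14 over all 35116 windows. At least 44 CG were held by 4.19% of all windows, so the unexpressed HOXA13 had a start region as rich in CG as any HOX window in the table. The HOXC5 entry has the same coordinates as the HOXC4 entry, so these genes share a start region there, and the HOXD3 window lies at a start inside the HOXD3 span. The letters TATAAA on either strand were in 5 of the 27 HOX windows, the HOXD13 window included, and in 11.5% of all windows.

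Total counts per library ranged from 15430000 in siControl replicate 3 to 21565013 in siMETTL3 replicate 2. Reads were counted over gene spans, exons and introns alike, on either strand, and a read that lies in several spans was counted for each. Pairs of libraries of a group had a chi-square per degree of freedom of 3.05 to 16.1, where independent reads would give 1 and counting both mates of a pair would give more. On the first principal component, which separated the groups, siControl replicate 3 lay farthest from siMETTL3. The labels do not say that replicates were separate cultures, so p-values measure the spread between these libraries, which may be technical. All 9 sympathetic neuroblast markers listed were above 1 CPM (counts scaled to the size of the library), with a summed level of 3153 to 3615 CPM in siControl and 4511 to 4795 CPM in siMETTL3. TH, the first enzyme of catecholamine synthesis, and GATA2 were among the 6 of them that rose, and ISL1 fell from 103 ± 6.13 to 45.5 ± 3.50 CPM (SD, n = 3). The 8 fibroblast markers summed to 118 to 139 CPM in siControl and 121 to 129 CPM in siMETTL3, mostly from PDGFRB, with COL1A2, LUM and DCN below 0.2 CPM on average, and COL1A1 rose from 2.96 ± 1.27 to 5.26 ± 0.471 CPM. The Schwann and glial markers summed to at most 8.94 CPM, the endothelial markers to at most 9.25 CPM, the epithelial markers to at most 8.36 CPM and the immune markers to at most 2.87 CPM in any library. The glial sum was 7.21 to 8.94 CPM in siMETTL3 against 5.91 to 6.61 CPM in siControl and the endothelial sum 6.95 to 9.25 CPM against 4.98 to 5.91 CPM. These sums and the neuroblast sum were higher in every siMETTL3 library, though not every member was: the endothelial sum was mostly VWF, which rose from 4.66 to 7.54 CPM, while PECAM1 had 0.825 and 0.409 CPM. The part of these cell types in any HOX result was not tested.

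METTL3 itself was measured first, as a check of the labels. Its level was 53.5, 52.8 and 56.2 CPM in siControl replicates 1 to 3 and 32.99, 31.8 and 34.3 CPM in siMETTL3 replicates 1 to 3, with no overlap. This was a log2 fold change of -0.71 (SE 0.070, edgeR FDR 4.68e-06), where FDR is the adjusted p over all tested genes and its threshold is 0.05. In bulk libraries such as these, fewer cells that express a gene and less RNA per cell cannot be told apart.

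Cluster A lies on chromosome 7. HOXA2, HOXA4, HOXA6 and HOXA13 had 0 counts in all 6 libraries, and no HOXA gene had more than 4 counts in any library. The 11 genes together took 8, 0 and 4 counts in siControl and 12, 8 and 2 in siMETTL3. Cluster B, on chromosome 17, was as low: HOXB1, HOXB2, HOXB5, HOXB6 and HOXB9 had 0 counts in all libraries, and the highest value was 8 counts, for HOXB3 in siMETTL3 replicate 2. Its 10 genes together took 2, 4 and 12 counts in siControl and 6, 14 and 1 in siMETTL3. A count of 0 allows up to 3 counts, which is 0.138 to 0.199 CPM depending on the library, counting error only. None of these 21 genes passed the filter on low counts, and a difference between the groups was not detectable at this depth.

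The low values had a pattern of their own. Of the 33 values above 0 among the 26 HOX genes that did not pass the filter, 30 were even, and over all genes 75.9% of values from 1 to 20 were even. The headers carry no setting that joins mates into fragments, and the number of RNA fragments behind such a count was not given. If both mates of a pair were counted the limit would rest on 6 counts, or 0.276 to 0.398 CPM.

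Cluster C, on chromosome 12, was split. HOXC4, HOXC5, HOXC6, HOXC8 and HOXC9 were all expressed, and they lie next to each other at the low-numbered end of the cluster. HOXC10, HOXC11, HOXC12 and HOXC13 were not: HOXC11 and HOXC12 had 0 counts in all libraries, HOXC10 had 2 counts in siControl replicate 1 and none elsewhere, and HOXC13 had at most 5. The last base of the HOXC10 span and the first base of the HOXC6 span are 53990279 and 53990624. HOXC10 had at most 2 counts and HOXC6 at least 486, but the HOXC6 span is 40.2 kb long and holds HOXC9 and HOXC8. Where in that span its reads lie was not given, so the counts do not place the change between these bases. Clusters A and B showed no such change along the row, having no expressed end.

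Cluster D, on chromosome 2, was expressed on both sides of a gap at HOXD12. HOXD13, at the end of the cluster, had 264 to 360 counts in each library, while its neighbour HOXD12 had at most 2. HOXD11 and HOXD10, next in the row, were low, and HOXD9, HOXD8 and HOXD3 were high again. HOXD1, at the other end of the cluster, was low, with 24 to 50 counts. By paralogue group, groups 2, 7 and 12 had no gene that passed the filter, and groups 4, 8 and 9 each had a HOXC and a HOXD gene that did. In all, 13 of the 39 genes passed the filter, 5 in cluster C and 8 in cluster D. Cluster D held 51.6% to 58.6% of all HOX counts of a library and cluster C 40.9% to 47.9%. In these shares a read in overlapping spans counts for each gene, and the expressed genes of cluster C overlap more than those of cluster D.

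**Figure D1:**
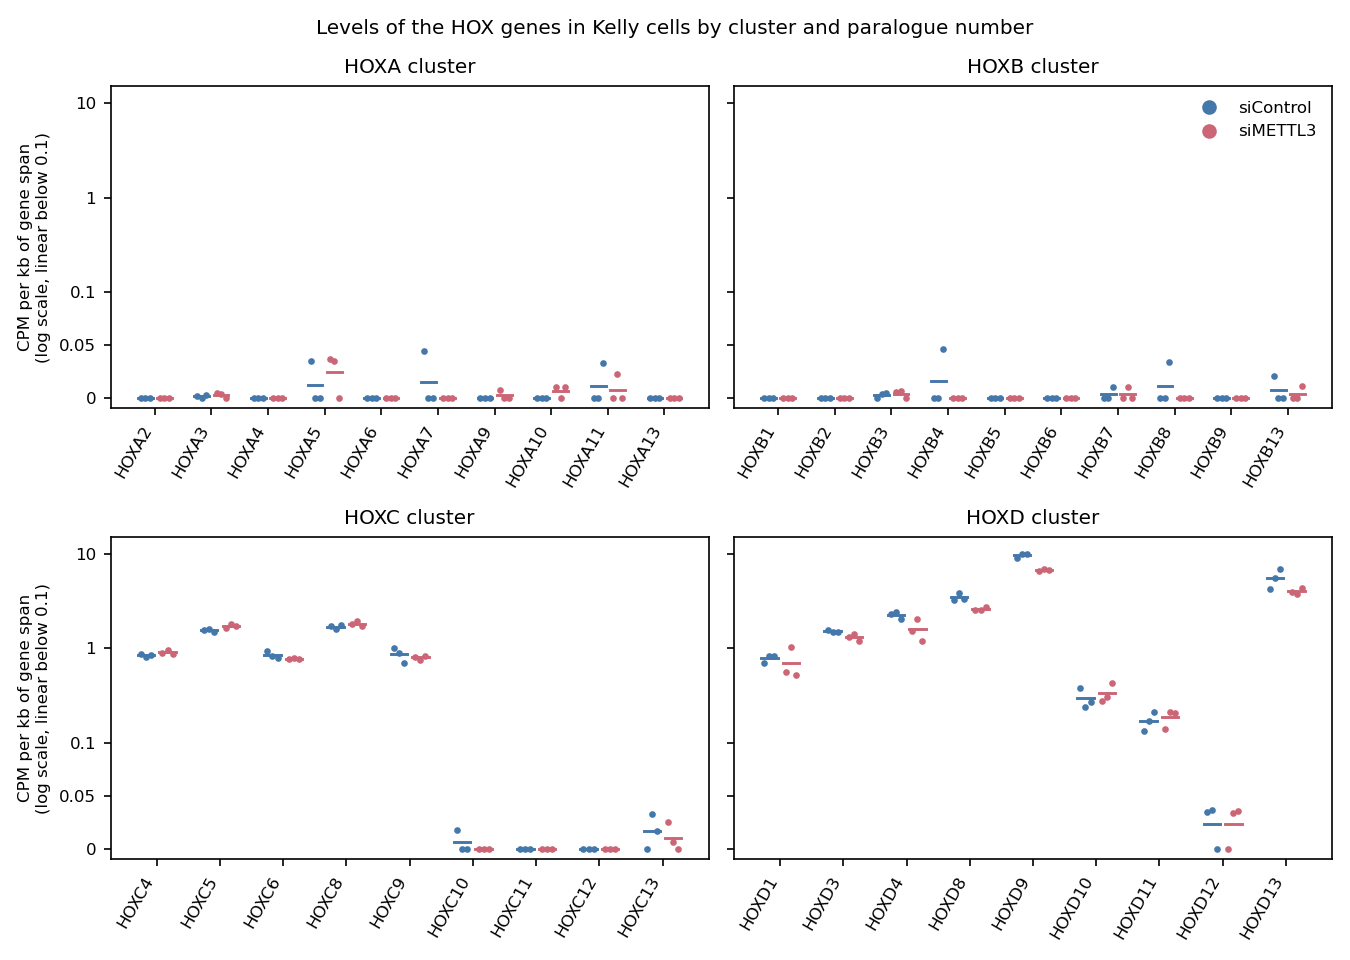
Level of the HOX genes shown, in CPM per kb of gene span (vertical axis, logarithmic above 0.1 and linear below it), by cluster and in order of paralogue number. Points are the 3 libraries of each group and lines their means; clusters A and B lie near 0, HOXC4 to HOXC9 and all HOXD genes but HOXD12 lie above 0.1, and HOXD9 is the highest.

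Levels were compared between genes per kb of gene span, the length that the counting used. In siControl, HOXD9 was the highest at 9.56 ± 0.498 CPM per kb (SD, n = 3), followed by HOXD13 at 5.56 ± 1.31 and HOXD8 at 3.47 ± 0.362. HOXD9, a gene of limb and trunk patterning, stood above its neighbours in the order by more than their SDs, and so did HOXD13. HOXD4 followed at 2.28 ± 0.199, HOXC8 at 1.70 ± 0.0848, HOXC5 at 1.55 ± 0.0673 and HOXD3 at 1.52 ± 0.0482 CPM per kb. HOXC5 and HOXD3 differed by less than their SDs. So did HOXC9, HOXC6 and HOXC4, which had 0.865, 0.858 and 0.846 CPM per kb. HOXD1 had 0.787, HOXD10 had 0.299 and HOXD11 had 0.174 CPM per kb. The order depends on the length used: per kb of exon in GENCODE release 44, HOXD3 was the highest at 14.997 CPM, then HOXC4 at 11.96, HOXD9 at 11.3 and HOXC6 at 9.97. HOXD3, HOXC4 and HOXC6 have spans of 36.5, 39.1 and 40.2 kb, most of it intron, so a value per kb of span understates them if most reads are exonic, and the share of intronic reads was not given.

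Spans that overlap limit what can be said of single genes. Of the 39 HOX spans, 23 shared bases with another gene of the tables, and 12 lay wholly inside others. In cluster C all 5 expressed genes shared span. The HOXC6 span (54030823 is its last base) holds HOXC9 and HOXC8 whole, HOXC4 holds HOXC5 whole, HOXC6 and HOXC4 share 13893 bases, and the gene AC012531.3 covers HOXC6 from end to end. AC012531.3 had 40.8, 37.0 and 36.2 CPM in siControl and 34.7, 35.8 and 35.3 CPM in siMETTL3, close to the values of HOXC6. Because a read in a nested gene was also counted for its host, HOXC9 and HOXC8 counts made up 39.1% to 44.6% of the HOXC6 count, by library. HOXC5 counts made up 11.1% to 12.7% of the HOXC4 count, and HOXD4 counts 4.54% to 7.54% of the HOXD3 count. Cluster D overlapped less: 4 of its 8 expressed genes, HOXD1, HOXD8, HOXD9 and HOXD13, shared no base with another gene of the tables.

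Antisense RNA is a further limit, since the counting used no strand. In GENCODE release 44 the antisense gene HOXD-AS2 covers 100% of the spans of HOXD9 and HOXD8. The antisense gene HAGLR covers 24.8% of the HOXD3 span and 12.99% of the HOXD1 span. HOXD-AS2 also covers 1.33% of the HOXD3 span, and a further antisense gene covers 4.26% of it. HOXC-AS2 covers 22.4% and HOXC-AS1 11.7% of the HOXC9 span. Of the HOXC6 span HOXC-AS2 covers 7.40% and HOXC-AS1 2.46%. HOXD13, HOXD4, HOXD10, HOXD11, HOXC4, HOXC5 and HOXC8 have no antisense gene across them there. On the same strand, a noncoding gene of that release covers 100% of the HOXC5 span, 46.7% of the HOXC4 span and 34.1% of the HOXC6 span. Reads of these antisense and noncoding genes cannot be told apart from those of the HOX genes they cross.

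**Figure D2:**
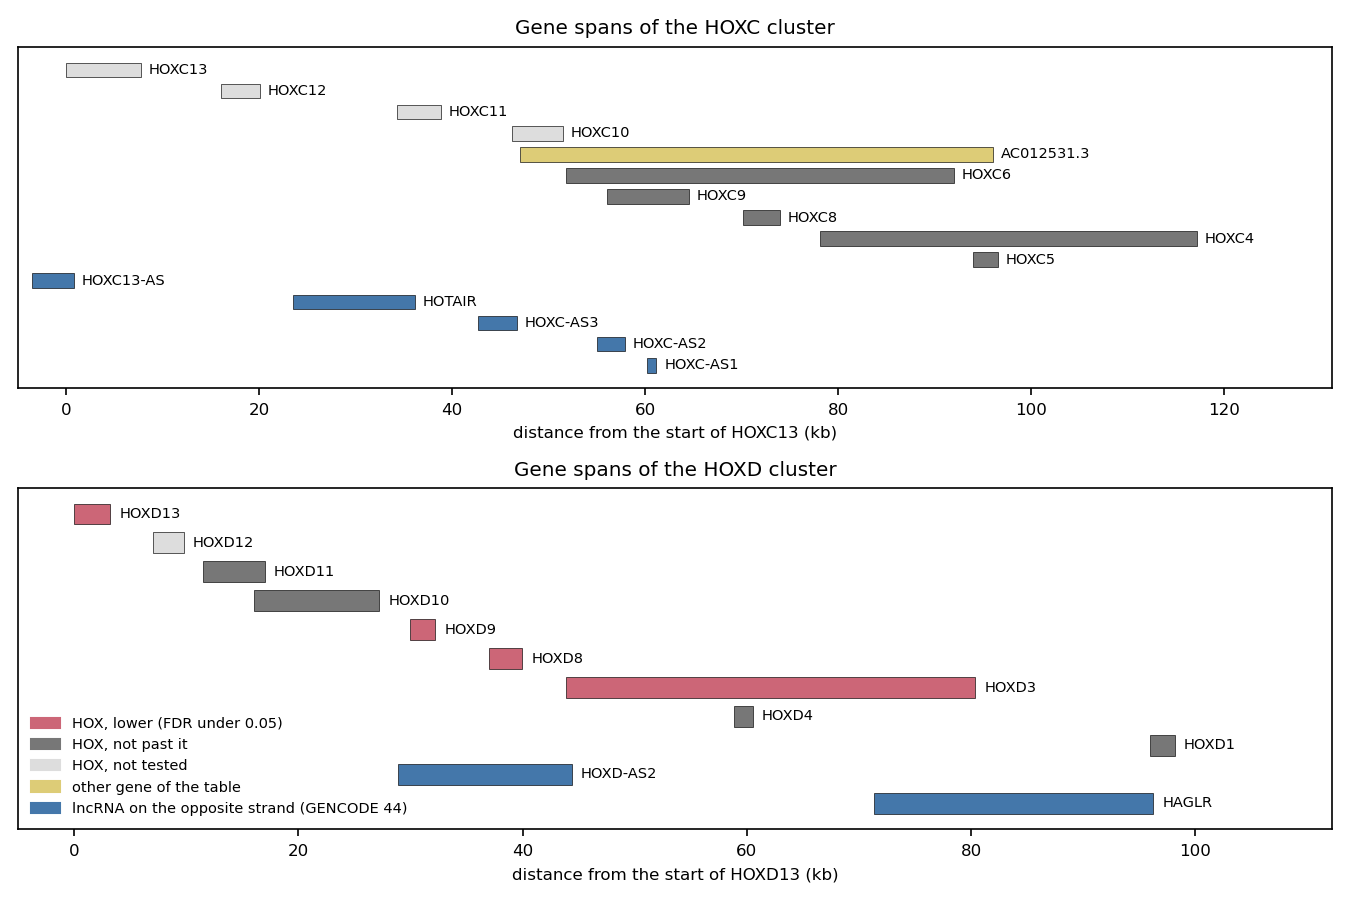
Spans of the genes of clusters C and D as bars against the distance from the start of HOXC13 and HOXD13 in kb. Red bars are HOX genes lower in siMETTL3, dark grey ones tested and not past the threshold, and light grey ones not tested. Yellow is the gene AC012531.3, and blue are the antisense lncRNAs of GENCODE release 44 that have a gene name. HOXC9 and HOXC8 lie inside HOXC6, while HOXD13, HOXD9 and HOXD8 overlap no other HOX bar and HOXD-AS2 lies over HOXD9 and HOXD8.

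Of the 13 HOX genes tested, 4 were lower and 0 were higher in siMETTL3 (edgeR quasi-likelihood test, FDR under 0.05). Over all 15311 tested genes 37.8% were called, 19.2% lower and 18.6% higher, so the share of HOX genes called, 30.8%, was near the background. The median log2 fold change of the 13 was -0.14, beside -0.0021 over all tested genes. At an unadjusted p under 0.05 edgeR had 0 HOX genes higher and 5 lower, and the share of all genes at that level is not given here. At FDR under 0.05 DESeq2 called 0 HOX genes higher and 4 lower, and limma-voom 0 higher and 3 lower. Over all tested genes DESeq2 called 35.7% and limma-voom 38.0%. Members of clusters that share reads or antisense genes are not independent observations. The 4 called genes were all in cluster D, 4 of 8 tested there, against 0 of 5 in cluster C. Whether the clusters differ in their response was not tested.

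HOXD9 (chr2:176122719-176124937) had the clearest fall. Its level was 19.9, 21.9 and 21.8 CPM in siControl replicates 1 to 3 and 14.4, 15.2 and 14.9 CPM in siMETTL3 replicates 1 to 3. Every siMETTL3 library lay below every siControl library. The log2 fold change was -0.51 (SE 0.094, 95% interval -0.71 to -0.31, edgeR FDR 0.000774), so 70.1% of the control level remained. The change was past the threshold in all 20 alternative settings that were run, with log2 fold changes of -0.56 to -0.35. The span is short, at 2.22 kb, and overlaps no other gene of the tables, but HOXD-AS2 crosses all of it.

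HOXD8 (chr2:176129694-176132695), the next gene in the cluster and one linked to retinoic acid response in neuroblastoma, also fell. It had 9.69, 11.7 and 9.89 CPM in siControl and 7.63, 7.58 and 8.23 CPM in siMETTL3, again without overlap. The log2 fold change was -0.42 (SE 0.13, 95% interval -0.69 to -0.14, edgeR FDR 0.0205). The call was lost without siControl replicate 2 (FDR 0.107), siMETTL3 replicate 1 (FDR 0.0716) or siMETTL3 replicate 2 (FDR 0.0701), and with an offset for span length (log2 fold change -0.28, FDR 0.0967) or for GC content and span length (-0.31, FDR 0.0568).

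HOXD13 (chr2:176092721-176095944), a gene of limb and digit patterning, had the widest spread. Its level was 13.6, 18.0 and 22.1 CPM in siControl and 12.8, 12.1 and 13.98 CPM in siMETTL3. The groups overlapped, since siControl replicate 1 lay below siMETTL3 replicate 3. The log2 fold change was -0.45 (SE 0.15, 95% interval -0.78 to -0.13, edgeR FDR 0.0315). Its size depends on the siControl libraries: it was -0.29 (FDR 0.0707) without replicate 3, the shallowest library, and -0.62 (FDR 0.000397) without replicate 1. The call was also lost without siControl replicate 2 (FDR 0.0904), without siMETTL3 replicates 1, 2 or 3 (FDR 0.0942, 0.116 and 0.0552), in limma-voom (FDR 0.0516) and with an offset for span length (log2 fold change -0.32, FDR 0.0925) or for GC content and span length (-0.32, FDR 0.0593).

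HOXD3 (chr2:176136612-176173102), which acts in patterning of the neck vertebrae, had the most counts of any HOX gene and the smallest fall of the 4 genes called lower. It had 57.5, 54.4 and 54.5 CPM in siControl and 48.0, 51.6 and 44.02 CPM in siMETTL3, with no overlap. The log2 fold change was -0.21 (SE 0.072, 95% interval -0.37 to -0.057, edgeR FDR 0.0325), leaving 86.3% of the control level. The call was lost without siControl replicate 1 or 2 (FDR 0.0666 and 0.0732), without siMETTL3 replicate 1 or 3 (FDR 0.0965 and 0.154) and on total counts (FDR 0.0608). With an offset for GC content and span length it was larger, at -0.39 (FDR 7.13e-05), and with the nested HOXD4 counts taken off it was -0.19 (FDR 0.0475). HAGLR, HOXD-AS2 and a further antisense gene lie across parts of this span, and their part in the difference was not tested.

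HOXD4, which acts in the hindbrain and neck, lies inside HOXD3 and had a larger difference than it at far lower counts. It had 3.89, 4.10 and 3.45 CPM in siControl and 2.58, 3.44 and 2.00 CPM in siMETTL3, so that the groups only just did not overlap. The log2 fold change was -0.52 (SE 0.23, 95% interval -1.0004 to -0.030) and did not pass the threshold (edgeR FDR 0.0888). It passed without siMETTL3 replicate 2 (log2 fold change -0.75, FDR 0.0409).

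The other 3 tested HOXD genes were low and did not pass. HOXD10, a lumbar motor neuron gene, had 2.70 to 4.27 CPM in siControl and 3.11 to 4.87 CPM in siMETTL3 (log2 fold change 0.18, 95% interval -0.33 to 0.68). HOXD11, a forearm patterning gene, had 0.742 to 1.19 CPM in siControl and 0.777 to 1.19 CPM in siMETTL3 (log2 fold change 0.15, 95% interval -0.61 to 0.91). HOXD1 had 1.58 to 1.86 CPM in siControl and 1.17 to 2.30 CPM in siMETTL3 (log2 fold change -0.15, 95% interval -0.82 to 0.52). Their groups overlapped. The HOXD1 and HOXD11 intervals hold a fall as large as that of HOXD9, so such a fall was not detectable at their depth, while the HOXD10 interval leaves it out.

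In cluster C none of the 5 expressed genes passed the threshold. HOXC4 (chr12:54016931-54056030), a gene of the neck segments, had 33.9, 31.9 and 33.4 CPM in siControl and 35.1, 37.4 and 34.2 CPM in siMETTL3. Its groups did not overlap, with siMETTL3 above, yet the log2 fold change was 0.11 (95% interval -0.057 to 0.27, edgeR FDR 0.298), and it was -0.086 with an offset for GC content and span length. HOXC5, nested in it, went from 3.89, 4.05 and 3.72 CPM to 4.08, 4.50 and 4.29 CPM, also without overlap (log2 fold change 0.14, 95% interval -0.23 to 0.51, edgeR FDR 0.562).

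HOXC6 (chr12:53990624-54030823), which acts at brachial levels of the spinal cord, was on the other side of 0. It had 37.4, 33.8 and 32.3 CPM in siControl and 31.0, 32.2 and 31.3 CPM in siMETTL3, where the lowest siControl library was just above the highest siMETTL3 library. The log2 fold change was -0.14 (95% interval -0.31 to 0.036, edgeR FDR 0.204), and it was -0.073 without siControl replicate 1. With the counts of HOXC9 and HOXC8 taken off, 22.3, 20.3 and 19.6 CPM remained in siControl, against 17.2, 18.4 and 17.7 CPM in siMETTL3 (log2 fold change -0.23, FDR 0.0703). An offset for GC content and span length brought HOXC6 past the threshold (log2 fold change -0.35, FDR 0.000531). The HOXC6 call thus depends on that offset.

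The genes nested in HOXC6 moved little. HOXC8, which acts at the boundary of brachial and thoracic cord, had 6.58, 6.06 and 6.64 CPM in siControl and 6.90, 7.30 and 6.48 CPM in siMETTL3 (log2 fold change 0.10, 95% interval -0.20 to 0.40). HOXC9, a thoracic gene linked to neuronal differentiation of neuroblastoma cells, had 8.44, 7.51 and 5.97 CPM in siControl and 6.90, 6.43 and 7.11 CPM in siMETTL3 (log2 fold change -0.11, 95% interval -0.44 to 0.22). The siControl values of HOXC9 enclosed those of siMETTL3. In the fit with all 6 libraries and no offset, the lower bounds of the 5 HOXC intervals went from -0.44 for HOXC9 to -0.057 for HOXC4. With the offset for GC content and span length, HOXC6 at -0.35 was close to HOXD9 at -0.40, and without siControl replicate 3 HOXC9 was at -0.23 (SE 0.15).

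**Figure D3:**
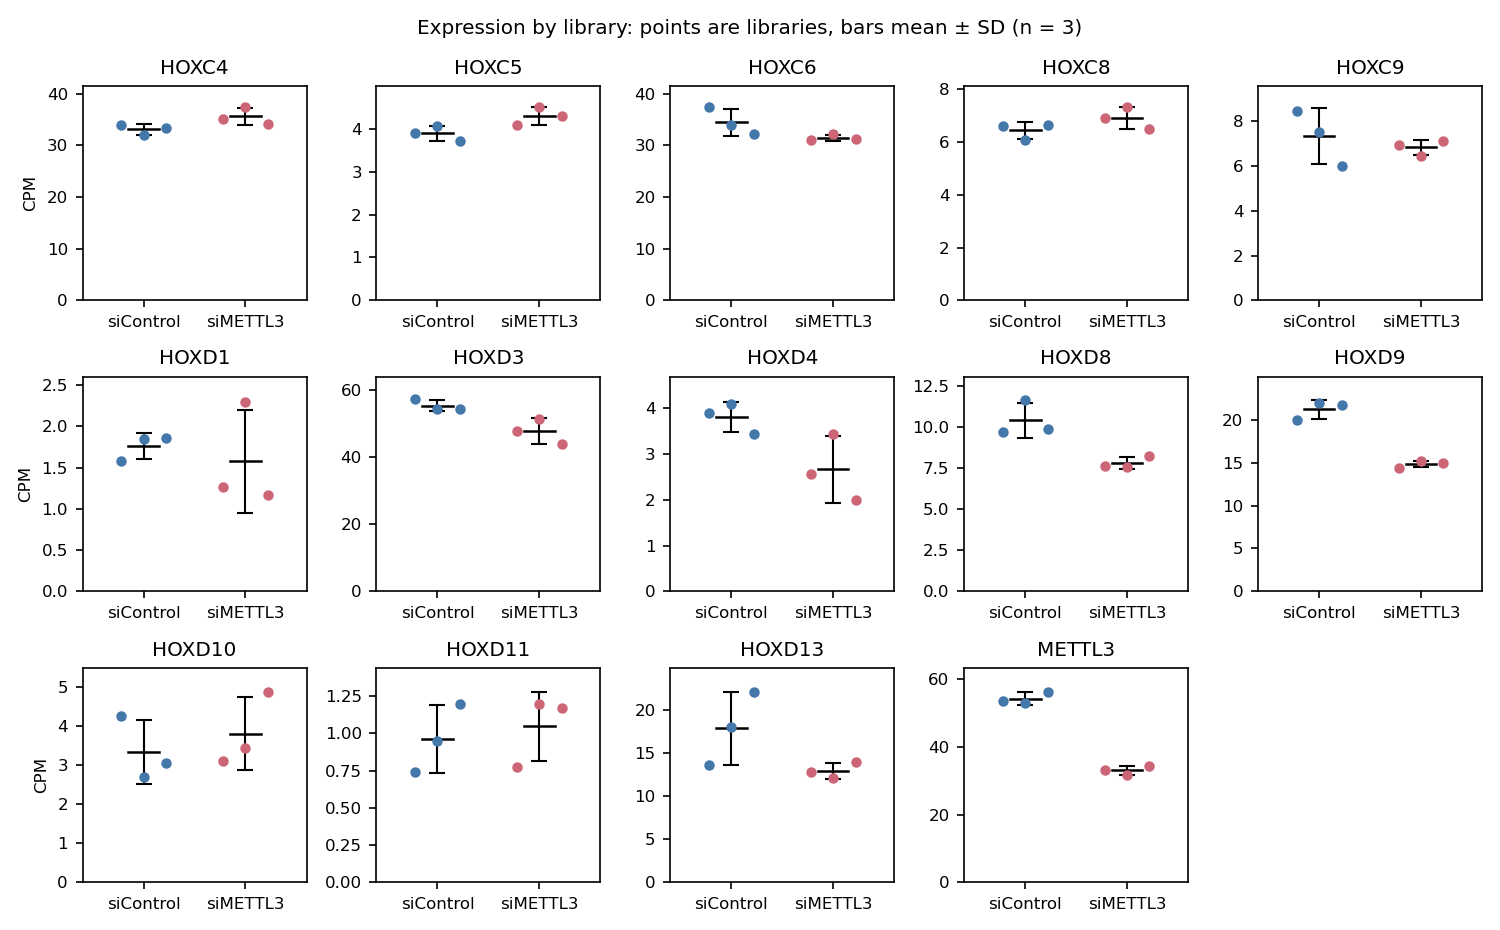
CPM (vertical axes, starting at 0) of the 13 tested HOX genes and METTL3 in siControl and siMETTL3; points are libraries and bars mean ± SD (n = 3). HOXD9, HOXD8 and HOXD3 show siMETTL3 below siControl without overlap, HOXD13 shows a siControl spread from 13.6 to 22.1 CPM, and the 5 HOXC genes lie at similar heights in both groups.

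Counted by library values alone, 5 of the 13 tested genes had all siMETTL3 libraries below all siControl libraries (HOXC6, HOXD3, HOXD4, HOXD8 and HOXD9) and 2 had them above (HOXC4 and HOXC5). Over all tested genes the groups did not overlap in 49.9%, with siMETTL3 lower in 25.1% and higher in 24.8%. The 7 of 13 are near this background. Scaled by total counts or by the upper quartile, 3 genes had siMETTL3 wholly lower.

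Summed over a cluster, in which nested reads count for each gene, the pattern was as follows. Cluster D came to 111.3, 115.7 and 117.8 CPM in siControl and 90.6, 96.9 and 90.5 CPM in siMETTL3, a ratio of means of 0.806. Its groups did not overlap. Cluster C came to 90.3, 83.6 and 82.2 CPM in siControl and 84.2, 87.9 and 83.3 CPM in siMETTL3, a ratio of 0.997, with the groups interleaved. For the HOXD genes that share no span the ratio was 0.726. These sums follow from the genes already described and were not tested.

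**Figure D4:**
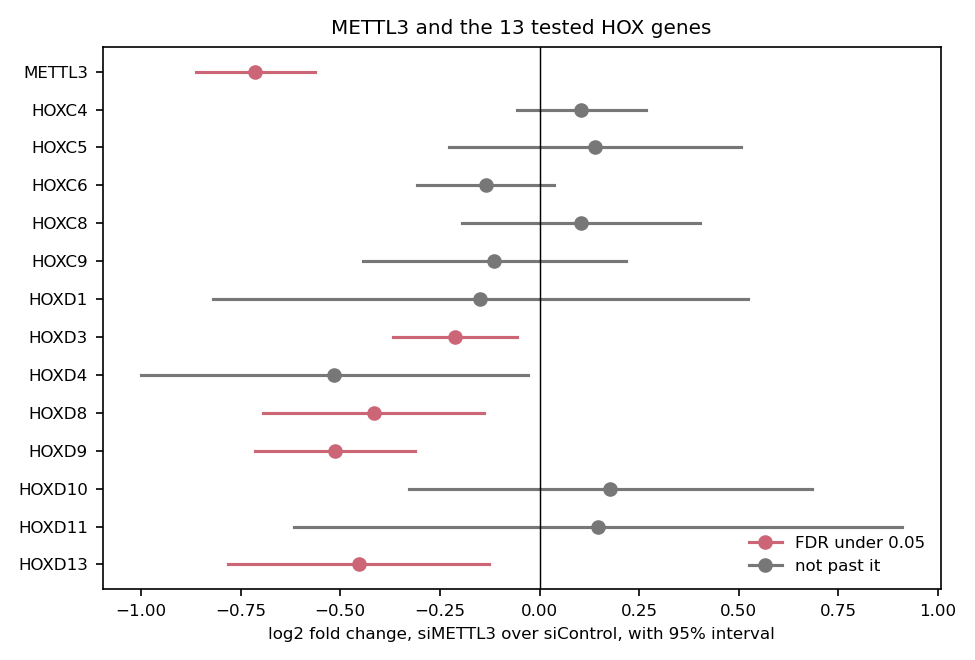
Log2 fold change of siMETTL3 over siControl (horizontal axis) for METTL3 and the 13 tested HOX genes, as points with 95% intervals from edgeR; red marks FDR under 0.05. HOXD3, HOXD8, HOXD9 and HOXD13 lie below 0 with intervals that do not reach it, as does HOXD4, whose FDR is 0.0888, and every HOXC interval crosses 0.

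The sequence GGACT, a frequent context of N6-methyladenosine, was counted in the canonical GENCODE transcript of each gene. It was in all 13 tested HOX transcripts and in 91.3% of those of tested genes. Among the genes called lower it occurred 0.38 times per kb in HOXD8, 0.41 in HOXD13, 1.63 in HOXD3 and 2.14 in HOXD9. Among those not called it ranged from 0.53 in HOXD1 to 3.39 in HOXC9. The median over tested genes was 0.93 per kb and over tested HOX genes 1.63, so called HOX genes lay on both sides of either median. A match gives the letters only; methylation was not measured here.

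The list of TALE genes held the PBX, MEIS and PKNOX cofactors, which bind DNA with HOX proteins, and the TALE repressors TGIF1 and TGIF2. All were expressed. Of 11 listed genes 5 rose, 3 fell, TGIF1 among them, and 3 did not pass the threshold, beside 18.6% higher and 19.2% lower over all tested genes, with a median log2 fold change of 0.047 beside -0.0021 over all tested genes. PBX3, at 231 ± 20.6 CPM in siControl and 168 ± 0.680 CPM in siMETTL3 (SD, n = 3), fell by 0.46 on the log2 scale (FDR 0.000109, edgeR). MEIS1, a cofactor of posterior HOX proteins, fell by 0.28 on the log2 scale and PKNOX2 rose by 0.76 from 3.64 ± 0.459 CPM.

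Among 14 genes whose products activate or demethylate HOX chromatin, 6 rose and 1 fell, beside the same 18.6% and 19.2% over all tested genes, with a median log2 fold change of 0.15. AFF1, a member of the elongation complexes that join KMT2A in leukaemia, had 116 ± 8.86 CPM in siControl and 188 ± 2.98 CPM in siMETTL3 and rose by 0.69 on the log2 scale (FDR 2.49e-06, edgeR). KDM6B, a demethylase of the Polycomb mark, rose by 0.69 and MLLT1 by 0.63 on the log2 scale. KMT2A itself did not pass the threshold (log2 fold change 0.14, edgeR FDR 0.0599). Of 19 Polycomb genes 2 rose, 4 fell and 13 did not pass, with a median of -0.061; the share called was not above the 37.8% called over all tested genes. JARID2, which helps recruit the complex, rose by 0.39, and CBX2 and BMI1, subunits of the complex that binds its mark, fell by 0.37 and 0.44. The catalytic subunit EZH2 did not pass (log2 fold change 0.12, edgeR FDR 0.09998). Of 7 CTCF and cohesin genes 2 rose and 0 fell, also not above 37.8%: CTCF, which binds boundaries within HOX clusters, rose by 0.28, and SMC1A by 0.19.

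The genes around the clusters were read as well. The ParaHox and EVX genes, homeobox relatives of the HOX genes, were at or near 0: of 8 listed, 5 had 0 counts in all libraries, EVX1 beside cluster A among them, and EVX2 beside HOXD13 was the single gene that passed the filter, at 0.667 ± 0.281 CPM in siControl. Inside the clusters or within 300 kb of their outermost genes lay 24 other genes, EVX1, EVX2 and AC012531.3 among them, of which 18 were tested, 5 rose and 4 fell, beside 37.8% called over all tested genes. Beside cluster D, MTX2 fell by 0.22 (edgeR FDR 0.0324), at the end away from HOXD13, and LNPK did not pass (log2 fold change -0.057, FDR 0.436). Beside cluster C, CALCOCO1 fell by 0.50, HNRNPA1 fell by 0.35 and SMUG1 rose by 0.30. Beside the unexpressed cluster B, ATP5MC1 fell by 0.37, UBE2Z rose by 0.31 and CALCOCO2 rose by 0.49. Genes on the flank of cluster B were thus expressed while its HOX genes were at or near 0.

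**Figure D5:**
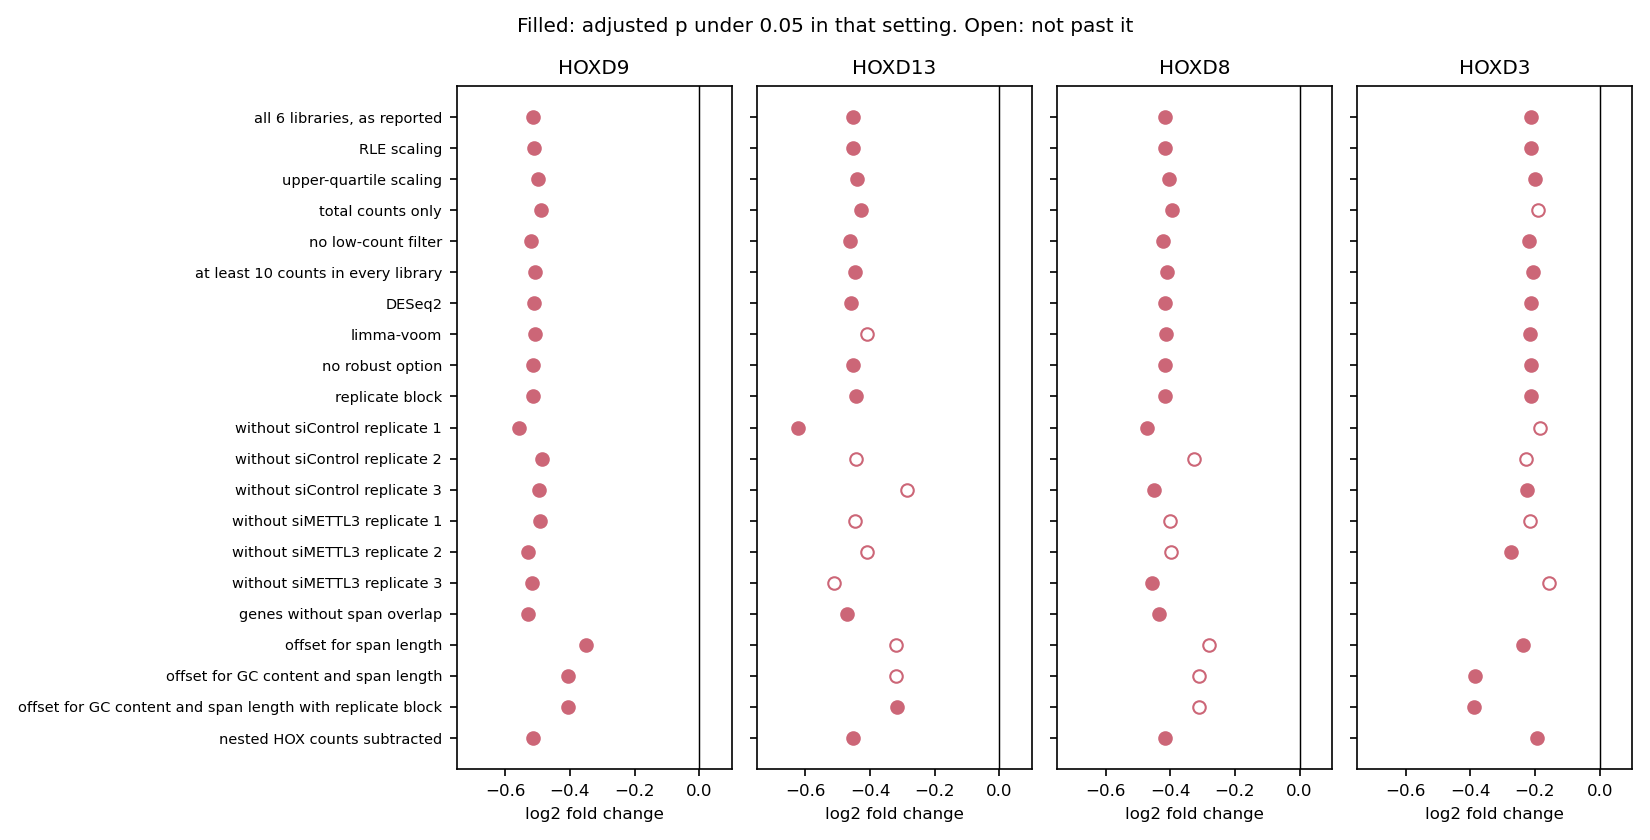
Log2 fold change (horizontal axes) of HOXD9, HOXD13, HOXD8 and HOXD3 in the fit reported and under each alternative setting (rows); filled points are past FDR 0.05 in that setting and open ones are not. HOXD9 is filled in every row that was run, and the other 3 genes are open in some rows that leave out a library.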

How the data were processed

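The data were the deposited raw read counts per gene of 6 libraries, 3 siControl and 3 siMETTL3; groups and replicate numbers come from the sample titles. Per the file headers, the authors counted with featureCounts 1.5.3 on a protein-only GENCODE release 33, over gene spans, allowing overlaps, with no strand or pair-counting option. Per the submitters' processing notes, FastQC 0.11.5, Trimmomatic 0.36, HISAT2 2.1.0 and build GRCh38 were used. Of the tables' spans, 18964 of the 18965 with a GENCODE release 44 gene of the same symbol overlapped it.

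Genes were filtered with filterByExpr, scaled by TMM (trimmed mean of M-values) and tested with edgeR 4.0.16 in R 4.3.3. The test was quasi-likelihood, robust, with no covariate and Benjamini-Hochberg over 15311 genes, and intervals are 95%. The fit was also run on data simulated from its own model, with changes larger than those of the HOX genes. That run does not show how the fit does at the size of the HOX changes. CPM uses TMM-scaled library sizes. All HOX genes enter the counts and sums, and 1 gene of cluster A is not reported singly here. Named genes of other lists are up to 3 with the smallest FDR past the threshold, plus KMT2A, EZH2, LNPK, EVX2, TGIF1, TGIF2, PDGFRB, COL1A2, LUM, DCN and PECAM1, named after their values were seen. Members and lists were chosen with earlier results of these data known. DESeq2 1.42.0 and limma 3.58.1 served as alternatives.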

Additional observations from a re-analysis of the deposited data

How the results depend on the processing

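Only the subtraction of nested HOX counts was an alternative chosen after seeing the data. The METTL3 call held in each alternative run, with log2 fold changes of -0.74 to -0.69 when each library was left out. The METTL3 log2 fold change was -0.67 with the offset for span length and -0.54 with the offset for GC content and span length. With 1 library left out, 1 to 3 HOX genes were called lower and 0 higher. HOXD9 alone was called without siControl replicate 2 or siMETTL3 replicate 1, where 28.4% and 27.2% of all tested genes were called. That share was 41.3% without siControl replicate 1, 40.5% without siControl replicate 3, 28.1% without siMETTL3 replicate 2 and 29.2% without siMETTL3 replicate 3. With an offset for span length 2 HOX genes were lower, beside 37.4% of all tested genes called. The offset for GC content and span length called HOXC6, HOXD3 and HOXD9, beside 41.2% of all tested genes. Genes called over the whole table went from 2119 to 3216 lower and from 2091 to 3178 higher when a library was left out. Among genes without span overlap they were 1898 lower and 1852 higher, because only 9518 genes were tested. METTL3 was kept in that set whatever its own overlap. Tested HOX genes wholly lower by library went from 5 to 3 with upper-quartile scaling and to 3 with total counts.

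Of 251 values of single tested HOX genes under alternatives, 222 kept their direction and side of the threshold, 19 were no longer past it, 3 newly were, and 7 changed sign, all of them not past the threshold. These were HOXC4 at -0.086 and -0.087 with the offset for GC content and span length, without and with the replicate block, and HOXD1 at 0.0095 with the offset for span length. Leaving out each library in turn gave -0.23 to 0.0042 for HOXC9 and -0.019 to 0.32 for HOXD11, both changing sign without siControl replicate 1. It gave -0.53 to 0.026 for HOXD1 and -0.036 to 0.41 for HOXD10, both changing sign without siMETTL3 replicate 3. Without siMETTL3 replicate 2, HOXC4 was at 0.064 and HOXC8 at 0.056. The cause was not tested. In the replicate block fit 4 HOX genes were lower, the same 4, and 6166 genes were called in all. Replicate numbers are only names here: correlations of deviations from the group means were 0.036, 0.044 and 0.054 where siControl and siMETTL3 libraries had equal numbers and -0.052 to 0.019 where they had not. Each library thus correlated best with its own number, which comes from the data and not the design. Among deviations from group means some matching of libraries must come out best, so pairing cannot be read from these small values. No value could be given for cluster C without span overlap, since all its expressed genes overlap.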
